A study of Mus musculus with 6 samples.

Results

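The 8 subunits of TRiC/CCT, the cytosolic chaperonin of eukaryotes, were followed as mRNA in cultured mouse oligodendrocyte progenitor cells (OPCs), glial precursors that still divide and from which the myelin-forming oligodendrocytes arise. The members were taken by name (Tcp1, Cct2, Cct3, Cct4, Cct5, Cct6a, Cct7 and Cct8), and all 8 were present among the 18743 annotated genes of the series. The cells came from the cortex of wild-type C57BL/6 pups, given in the labels as postnatal day 1, and were isolated with magnetic beads against CD140 (PDGFRα). After 3 days of expansion, 3 samples labelled vehicle received 0.25% DMSO and 3 labelled hemin were given hemin, the ferric chloride form of heme, at 50 µM, each for 12 h. No DMSO content is given for the hemin samples, so a difference in solvent cannot be told apart from hemin. The labels do not say whether replicates came from separate litters or cultures, so the spread that the p-values rest on may be technical.

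TRiC/CCT is a barrel of 2 back-to-back rings, each built from 8 related but different subunits in a fixed order. Newly made proteins enter the cavity, and cycles of ATP binding and hydrolysis close a lid built into the subunits and let the protein fold inside. Its best known clients are actins and tubulins, from which the long processes of oligodendrocytes are built. Each ring holds every subunit once, so the proteins are needed in equal number. Prefoldin and phosducin-like proteins work with it as co-chaperones.

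The libraries held 6339966 to 6523639 expected counts over annotated genes, the authors' estimates of reads per transcript. All 7 fixed OPC markers were listed in every library, and all 7 were called lower with hemin. A call is an edgeR adjusted p below 0.05, by which 15.7% of all 12779 genes tested were lower and 16.2% higher. Their summed level was 1129 to 1356 FPKM (fragments scaled for transcript length and library depth) with vehicle and 337.5 to 507.0 with hemin. The OPC label thus held with vehicle, and its markers moved with the treatment. Astrocyte markers summed to 341.8 to 401.2 FPKM with vehicle and 307.3 to 385.2 with hemin (5 listed, 1 higher, Gja1, and 1 lower, Aqp4). Most of that sum was Slc1a3, with a mean of 255.5 FPKM with vehicle and 208.8 with hemin. Neuronal markers summed to 95.77 to 123.2 and 52.87 to 81.75 FPKM (5 listed, 2 lower), and microglial markers to 3.96 to 7.68 and 9.28 to 10.73 (5 listed, 3 tested, 0 called). Endothelial and mural markers summed to 2.20 to 4.73 and 4.36 to 8.83 (4 listed, 3 tested, 1 higher). Markers of mature oligodendrocytes stayed at or under 9.20 FPKM in sum, 2 of 5 were tested, 1 of them lower, and Mog was at 0. The part that such shifts between cell types played in the results below was not tested. In bulk samples, fewer cells of a type and less RNA per cell cannot be told apart.

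Every subunit had a higher mean level with hemin than with vehicle, and 6 of the 8 rose by edgeR's quasi-likelihood test at a Benjamini-Hochberg adjusted p below 0.05, the call used throughout. The 6 were Cct2, Cct4, Cct5, Cct6a, Cct7 and Cct8. Tcp1 and Cct3 did not pass, and no subunit fell. Among all 12779 genes tested, 16.2% were called higher. The subunits belong to the abundant genes, and of the 500 tested genes with at least 100 FPKM in vehicle libraries, a background chosen after the data were seen, 32.4% were called higher. The median log2 fold change was 0.53 over the 8 subunits and 0.00 over all genes tested (0.18 over the 500 abundant genes). The fitted changes ran from 0.19 (Tcp1) to 0.69 (Cct4) on the log2 scale, so each stayed under 2-fold.

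**Figure D1:**
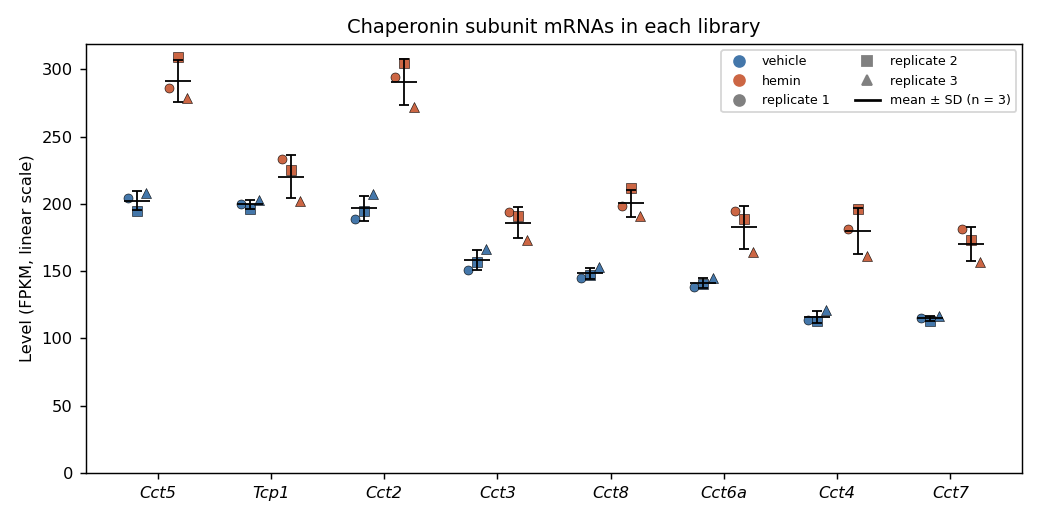
Level of each subunit mRNA in FPKM on a linear axis, with 1 point per library, coloured by treatment and shaped by replicate number, and bars for the mean ± SD of 3 libraries. The hemin points lie above all vehicle points for every subunit but Tcp1, where hemin replicate 3 (202.47) sits just under vehicle replicate 3 (202.91).

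Without hemin the 8 mRNAs lay within a narrow band of high levels. With vehicle, Cct5, Tcp1 and Cct2 formed the top of the order at 202 ± 6.88, 200 ± 3.34 and 197 ± 9.36 FPKM (SD, n = 3), and their ranges overlapped. Cct3 followed at 158 ± 7.60 FPKM, Cct8 at 149 ± 4.13 and Cct6a at 141 ± 3.64. The ranges of Cct3 and Cct8 overlapped, whereas Cct8 and Cct6a were separated only by 145.20 against 145.11 FPKM. Cct4 and Cct7 closed the order at 116 ± 4.44 and 115 ± 1.90 FPKM, and also overlapped each other. The highest mean was 1.76 times the lowest with vehicle and 1.71 times with hemin. All 8 lay at or above the 96.68th percentile of mean level among tested genes with vehicle. Libraries of a group differed little in these genes, with a median coefficient of variation of 3.09% with vehicle and 6.67% with hemin, against 4.63% and 11.7% over the 500 abundant genes.

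For 7 of the 8 genes the RefSeq promoter table (GRCm38.p6, a build that the submitters' processing notes do not name) holds windows from 250 bases before to 50 after an annotated start, 9 windows in all. The 250 bases before the outermost start are printed, 5′ to 3′ in the direction of the gene, for 3 subunits that rose (Cct2, Cct5 and Cct7) and for Tcp1, which did not pass. Capitals mark a match to any of the motifs named after the sequences.
Cct2 (chr10:117063853-117064102, minus strand): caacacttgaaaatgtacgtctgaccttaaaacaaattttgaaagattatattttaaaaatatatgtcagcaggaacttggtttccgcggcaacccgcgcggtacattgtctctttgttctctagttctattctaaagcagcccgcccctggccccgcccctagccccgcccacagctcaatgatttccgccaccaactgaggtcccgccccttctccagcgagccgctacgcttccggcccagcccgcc
Cct5 (chr15:31601847-31602096, minus strand): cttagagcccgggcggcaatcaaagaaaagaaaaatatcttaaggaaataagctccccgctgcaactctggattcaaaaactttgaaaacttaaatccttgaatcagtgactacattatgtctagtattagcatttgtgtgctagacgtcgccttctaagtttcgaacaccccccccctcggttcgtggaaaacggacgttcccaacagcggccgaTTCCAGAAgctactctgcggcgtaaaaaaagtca
Cct7 (chr6:85451255-85451504, plus strand): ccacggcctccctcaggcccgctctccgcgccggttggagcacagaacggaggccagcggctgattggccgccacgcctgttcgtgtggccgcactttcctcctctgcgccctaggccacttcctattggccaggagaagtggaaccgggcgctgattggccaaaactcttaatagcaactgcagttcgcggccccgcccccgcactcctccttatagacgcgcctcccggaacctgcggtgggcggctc
Tcp1 (chr17:12916079-12916328, plus strand): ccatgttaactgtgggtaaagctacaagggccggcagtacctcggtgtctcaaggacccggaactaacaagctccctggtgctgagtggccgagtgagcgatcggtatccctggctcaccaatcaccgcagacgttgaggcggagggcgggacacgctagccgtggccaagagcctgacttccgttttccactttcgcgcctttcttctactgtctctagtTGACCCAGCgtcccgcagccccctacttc
The windows share a high content of CpG: the 9 windows held 19 to 30 CpG dinucleotides each, against a median of 7 over all 32851 windows in the table, and 47.3 to 67.7% G and C against a median of 52.7%. The trait is common, since 28.1% of all windows held at least 19 CpG. None of the 9 held the TATA box TATAAA on either strand, which 13.6% of all windows hold. Heat shock elements, the sites of heat shock factors, were searched in both phasings on both strands. GAANNTTC (7.86% of all windows) occurred in 1 window, a second start of Cct2, and TTCNNGAA (8.52%) in 2, those of Cct5 and Cct6a. In the Cct5 sequence above the match TTCCAGAA begins 34 bases before the start, whereas the match TTCGAGAA of Cct6a begins 24 bases after it. The core of the antioxidant response element bound by NRF2, TGACNNNGC on either strand (12.4% of all windows), occurred in 3 windows, of Cct6a, Cct2 (at its second start) and Tcp1, where TGACCCAGC begins 29 bases before the start. TGATGNAA, a site of stress-induced ATF and C/EBP factors (3.97%), and the cyclic AMP response element TGACGTCA (1.79%) occurred in none. No match overlapped a match to another motif. Among the subunits that rose, Cct2, Cct5 and Cct6a held a match to some motif, and Cct7 and Cct8 held none. Cct4, which had the largest fitted rise, has no window in the promoter table. Of those that did not pass, Tcp1 held a match and Cct3 held none. Whether the motifs go with the changes was not tested. A match describes letters in a window and is not evidence of binding.

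Cct2, Cct4 and Cct5 are the subunits best known for binding ATP tightly, and are neighbours in the ring. Whether the change of a subunit goes with its ATP binding or its place in the ring was not tested. Cct4 (gene identifier 12464 in the files) had 113.98, 112.70 and 120.95 FPKM in vehicle replicates 1 to 3 and at 181.54, 195.80 and 161.49 in hemin replicates 1 to 3. The groups were well apart, with the lowest hemin library 40.5 FPKM above the highest vehicle library. Cct4 rose 1.61-fold (log2 fold change 0.69 ± 0.11, SE; edgeR adjusted p = 0.00332). Cct2 (12461), also described as a receptor that brings protein aggregates to autophagy, had 188.61, 194.66 and 206.97 FPKM with vehicle and 294.58, 304.90 and 271.75 with hemin. It rose 1.53-fold (0.62 ± 0.09 on the log2 scale; edgeR adjusted p = 0.00332), again with no overlap. Cct5 (12465), whose inherited variants cause a sensory neuropathy in people, had 203.99, 194.75 and 208.19 FPKM with vehicle and 286.04, 308.95 and 278.54 with hemin. Its rise was 1.49-fold (0.58 ± 0.09; edgeR adjusted p = 0.00308), and the groups did not overlap.

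Cct7 (12468), the eta subunit, stood beside Cct4 with vehicle and rose by a like amount. It had 115.27, 113.06 and 116.84 FPKM with vehicle, the tightest vehicle group of the 8, and 181.11, 172.98 and 156.51 with hemin. The rise was 1.54-fold (log2 fold change 0.62 ± 0.10, SE; edgeR adjusted p = 0.00382). All 3 hemin libraries lay above all 3 vehicle libraries.

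Cct8, Cct6a and Cct3, known as the subunits that bind ATP weakly, are neighbours on the opposite side of the ring. Cct8 (12469) had 145.20, 147.23 and 153.15 FPKM with vehicle and 198.42, 211.48 and 191.12 with hemin, without overlap. It rose 1.40-fold (log2 fold change 0.48 ± 0.09, SE; edgeR adjusted p = 0.00570). Cct6a (12466), the broadly expressed form of the zeta subunit, had 137.94, 140.45 and 145.11 FPKM with vehicle and 194.51, 188.76 and 164.55 with hemin. Its groups did not overlap and it rose 1.34-fold (0.43 ± 0.10; edgeR adjusted p = 0.0190). The call did not hold on leaving out vehicle replicate 1 (edgeR adjusted p = 0.0694), vehicle replicate 2 (0.0651) or hemin replicate 2 (0.0634) and in limma after quantile normalization (log2 fold change 0.20, adjusted p = 0.190). Cct3 (12462), the gamma subunit, had 151.15, 156.85 and 166.20 FPKM with vehicle and 194.01, 191.17 and 173.01 with hemin. The groups did not overlap, but the difference missed the threshold (1.22-fold, 0.29 ± 0.10; edgeR adjusted p = 0.0572). It passed in DESeq2 (adjusted p = 0.0292) and without hemin replicate 3 (edgeR adjusted p = 0.0301). The expected counts of Cct3 and Cct6a were not whole numbers in any library, although each had only 1 listed transcript. Fractions of this kind arise when reads are shared with transcripts outside the gene. The other 6 genes had whole counts in all 6 libraries (within 0.011).

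Tcp1 (21454), the alpha subunit that gave the complex its older name, had the smallest difference. It had 200.19, 196.26 and 202.91 FPKM with vehicle and 233.16, 224.81 and 202.47 with hemin, so hemin replicate 3 lay among the vehicle libraries. The log2 fold change was 0.19 ± 0.10 (SE, 1.14-fold; edgeR adjusted p = 0.171), and it turned to -0.01 in limma after quantile normalization (adjusted p = 0.936). Tcp1 was the only member with more than 1 listed transcript. The minor transcript, NM_001290712 in the files, took 4.25, 5.55 and 2.31% of the gene's counts with vehicle and 7.76, 8.67 and 7.05% with hemin. These shares did not overlap (4.04 ± 1.63% against 7.82 ± 0.81%, SD, n = 3 per group; two-sided exact permutation p = 0.10, the smallest that 3 against 3 libraries allow). They are estimates, because most reads of the 2 transcripts cannot be told apart. With the major transcript alone, the log2 fold change of Tcp1 was 0.14 (edgeR adjusted p = 0.336).

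**Figure D2:**
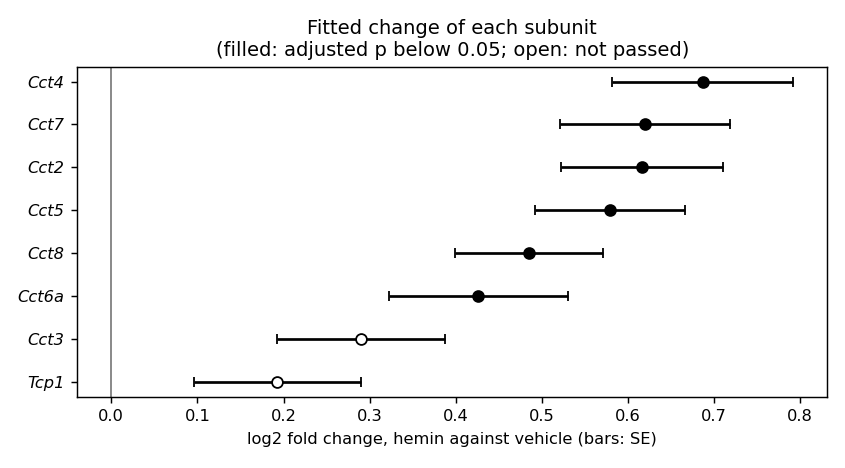
Fitted log2 fold change of each subunit, hemin against vehicle, with bars of 1 SE. Filled points passed an adjusted p of 0.05 and open points did not; Cct4 (0.69), Cct7, Cct2 and Cct5 lie at the top, and Cct3 (0.29) and Tcp1 (0.19) at the bottom.

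In all, 7 of the 8 subunits had every hemin library above every vehicle library in FPKM, an arrangement found for 21.5% of all genes tested and for 35.6% of the 500 abundant genes. Libraries within a group also moved together across the subunits. Hemin replicate 3 was the lowest hemin library for 8 of 8 subunits, whereas it was the lowest for 15.0% of the 500 abundant genes. Vehicle replicate 3 was the highest vehicle library for 8 of 8, against 45.6% of the abundant genes. The replicates numbered 3 were therefore the closest to each other across the treatments in summed level: the 8 subunits added up to 1256.3, 1256.0 and 1320.3 FPKM with vehicle and 1763.4, 1798.8 and 1599.4 with hemin. The same held for TMM-scaled CPM, where hemin replicate 3 was again lowest and vehicle replicate 3 highest for 8 of 8. Over the groups the sum was 1278 ± 37.1 FPKM with vehicle and 1721 ± 106 with hemin, a ratio of 1.35. The FPKM of all genes together was also higher with hemin. It was 314894, 318852 and 317098 in vehicle replicates 1 to 3, and 329178, 353701 and 362840 in hemin replicates 1 to 3. The ratio and the separation in FPKM were not rescaled for this.

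The fitted changes were unequal, and for 5 of the 8 mRNAs the proportion among the subunits was separated between the groups. An equal share would be 12.5% of the summed FPKM. Tcp1 made up 15.93, 15.63 and 15.37% with vehicle and 13.22, 12.50 and 12.66% with hemin, a difference in mean share of -2.85 percentage points. Cct3 made up 12.4 ± 0.30% with vehicle and 10.8 ± 0.19% with hemin (SD, n = 3). Cct2 had the larger share with hemin, 15.4 ± 0.34 and 16.9 ± 0.15%, as had Cct4, 9.07 ± 0.09 and 10.4 ± 0.41%, and Cct7, 9.01 ± 0.16 and 9.89 ± 0.34%. For these 5 the groups did not overlap (two-sided exact permutation p = 0.10 each, the smallest the design allows; 0.16 after Benjamini-Hochberg adjustment over the 8), so none reached the threshold. The shares of Cct5 (15.8 ± 0.37 and 16.9 ± 0.63%), Cct6a (11.1 ± 0.11 and 10.6 ± 0.38%) and Cct8 (11.6 ± 0.09 and 11.7 ± 0.36%) overlapped between the groups. The members of a sum are not independent, since a smaller share for Tcp1 raises the shares of others.

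**Figure D3:**
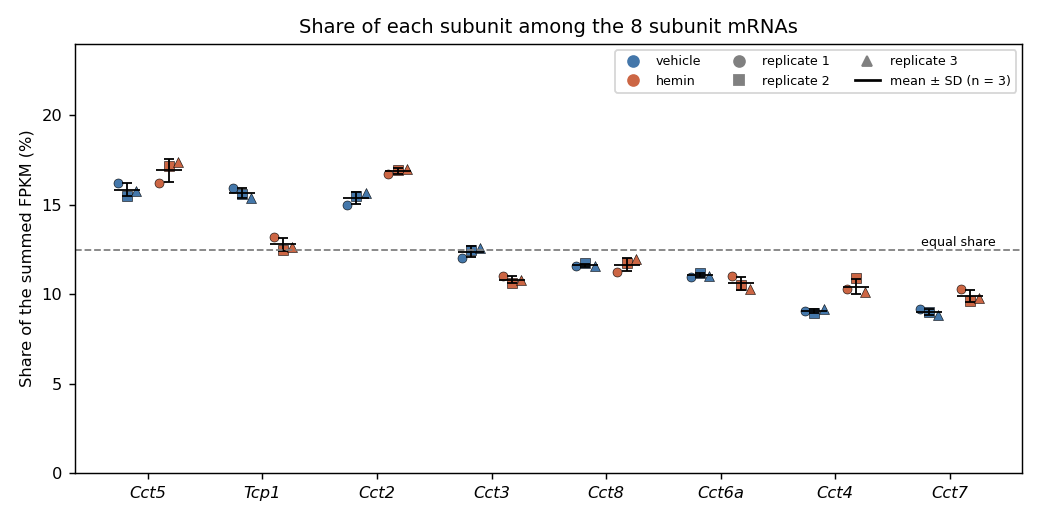
Share of each subunit in the summed FPKM of the 8 subunits, in percent, with 1 point per library and bars for the mean ± SD of 3 libraries; the dashed line marks an equal share of 12.5%. The hemin points of Tcp1 (mean 12.8%) and Cct3 (10.8%) lie under their vehicle points (15.6% and 12.4%), and those of Cct2, Cct4 and Cct7 above.

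Of the co-chaperones that hand clients to the ring, 0 passed the test in edgeR, although Pfdn5, Pfdn4 and Pfdn1 passed under some alternatives. Of 6 subunits of prefoldin, which carries unfolded actin and tubulin to the chaperonin, 0 were called by edgeR in either direction, with a median log2 fold change of 0.11; at an unadjusted p below 0.05 there were 2 genes, and DESeq2 called 1. Pfdn5 had 133 ± 8.86 FPKM in vehicle and 101 ± 12.7 in hemin libraries, without overlap (log2 fold change -0.34 ± 0.11, SE; edgeR adjusted p = 0.0518), and was called lower under 7 of 15 alternatives: DESeq2 (adjusted p = 0.0458), edgeR with library totals alone (0.0281), without the filter on low counts (0.0483) or without hemin replicate 3 (0.0313), and limma at a pseudocount of 1 or 0.1 (0.0264 and 0.0284) or after quantile normalization (0.00299). Pfdn4, at 1.52 ± 0.78 and 4.03 ± 1.83 FPKM, had the greatest difference in the other direction (1.48 ± 0.51; edgeR adjusted p = 0.0632). It was called higher under 4 of 15 alternatives: edgeR blocked on replicate number (adjusted p = 0.0436) or without vehicle replicate 3 (0.0490), and limma at a pseudocount of 1 (0.0470) or after quantile normalization (0.0386). Pfdn1, at 55.4 ± 3.34 and 65.2 ± 15.8 FPKM, and Vbp1, at 68.2 ± 3.71 and 72.1 ± 6.82, did not pass, but Pfdn1 did without hemin replicate 1 (edgeR adjusted p = 0.0134). Of 3 tested phosducin-like proteins (of 4 on the list), regulators that bind the chaperonin with its clients, and 3 prefoldin-like proteins, 0 were called by edgeR, 0 by DESeq2 and 0 had an unadjusted p below 0.05 in edgeR. Their log2 fold changes lay between 0.00 (Uri1) and 0.33 (Pdrg1), and those of Uri1, Pdcl and Pdcl3 turned negative with library totals alone.

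Genes downstream of the ring, and its clients, went in both directions, as did all genes tested, of which 16.2% were called higher and 15.7% lower. The list of tubulin cofactors includes proteins that assemble the tubulin dimer after the chaperonin releases it, though not all 7 genes on it do so. Of the 7, 3 were higher and 0 lower. Tbce rose 2.07-fold, from 13.3 ± 1.33 to 26.4 ± 1.27 FPKM (edgeR adjusted p = 0.00130). Tbcel and Tbca were 1.40-fold and 1.35-fold higher (edgeR adjusted p = 0.0375 and 0.0484), calls that were lost with library totals alone (0.0627 and 0.112) and, in all, under 9 and 12 of 15 alternatives. Arl2, a small GTPase that works with these cofactors, was 23.6 ± 0.54 FPKM in vehicle and 16.5 ± 3.91 in hemin libraries (edgeR adjusted p = 0.0953), and was called lower in limma at a pseudocount of 1 or 0.1 (adjusted p = 0.0429 and 0.0467) and after quantile normalization (0.0458).

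Actb, the beta-actin of non-muscle cells and a major client, fell 1.59-fold, from 1087.65, 976.69 and 1105.89 FPKM with vehicle to 627.05, 614.71 and 684.95 with hemin (log2 fold change -0.67 ± 0.09, SE; edgeR adjusted p = 0.00214). The groups were far apart, in the direction opposite to the subunits. Actg1, the other non-muscle actin, was 1137 ± 62.6 and 892 ± 176 FPKM and did not pass (edgeR adjusted p = 0.113), but was called lower without hemin replicate 3 (0.0158 by edgeR) and in limma after quantile normalization (adjusted p = 0.00310). The cardiac actin Actc1 had 8 counts in the vehicle libraries together and 91 in the hemin libraries and was called higher (edgeR adjusted p = 0.00536), at levels from 1.56 to 4.02 FPKM with hemin. Of 4 tested actins 1 was higher and 1 lower, against 16.2% and 15.7% of all genes tested. Acta2, of smooth muscle, was 2.90 ± 1.07 and 4.22 ± 1.68 FPKM.

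Of 15 tested tubulins, 3 rose and 4 fell, against 16.2% and 15.7% of all genes tested, with a median log2 fold change of -0.29. The 3 were Tuba4a, 3.61-fold higher at 12.1 ± 1.83 FPKM with hemin, Tuba1c, 2.16-fold higher at 38.8 ± 8.13, and Tubb6, 1.72-fold higher at 68.2 ± 10.1 (edgeR adjusted p = 0.00143, 0.00746 and 0.0141). The falls included Tubb3, the neuronal beta-tubulin, which dropped 2.59-fold from 40.1 ± 6.70 to 15.0 ± 5.51 FPKM, and Tube1, the epsilon-tubulin of centrioles, which dropped 2.15-fold from 3.28 ± 0.08 to 1.47 ± 0.31 (edgeR adjusted p = 0.00607 and 0.00944). Tubb2a and Tubb4a were 1.44-fold and 1.85-fold lower (edgeR adjusted p = 0.0269 and 0.0454). The Tubb2a call was lost without vehicle replicate 1 or 3 or hemin replicate 2 (edgeR adjusted p = 0.0987, 0.0863 and 0.0755). The Tubb4a call was lost without any 1 vehicle library (0.163, 0.0961 and 0.0655 for vehicle replicates 1, 2 and 3 by edgeR's adjusted p), without hemin replicate 2 (0.0776) and with the dominant transcript alone (0.0677). Tubulin genes are closely related in sequence, so the authors' counting could split reads among them. Tubb3 is itself on the list of neuronal markers, whose summed level was lower with hemin as given above, and their part in its fall was not tested. Tubb6, Tubb2a and Tubb4a were chosen after their values were seen.

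Of 15 other clients, 1 was higher and 5 were lower, with a median log2 fold change of -0.25. Ppp2r2a, a WD-repeat regulatory subunit of protein phosphatase 2A, rose 1.68-fold, with 36.86, 36.59 and 35.39 FPKM against 58.17, 59.13 and 58.74 (edgeR adjusted p = 0.000841). The cell cycle clients Ccne1 and Plk1, a cyclin and a mitotic kinase, fell 3.75-fold and 2.15-fold (edgeR adjusted p = 0.000993 and 0.00279). Mlst8, a subunit of the mTOR complexes, fell 1.76-fold from 12.0 ± 1.26 to 6.63 ± 0.75 FPKM (edgeR adjusted p = 0.00502). Vhl and Stat3, chosen after their values were seen, were 1.32-fold and 1.24-fold lower, near the threshold (edgeR adjusted p = 0.0495 and 0.0437). Both calls were lost without any 1 vehicle library (edgeR adjusted p = 0.0849, 0.128 and 0.161 for Vhl and 0.0968, 0.208 and 0.106 for Stat3, without vehicle replicates 1, 2 and 3), without hemin replicate 1 (0.0743 and 0.0584) or hemin replicate 2 (0.147 and 0.117), and with the dominant transcript alone (0.0663 and 0.103). Over all the co-chaperone, cofactor, client, relative and heat shock factor lists, 60 genes were tested. Of these 11 were higher and 10 lower, against 16.2% and 15.7% of all genes. The count of lower genes was 6 without vehicle replicate 1, vehicle replicate 3 or hemin replicate 2, and 17 in limma after quantile normalization.

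**Figure D4:**
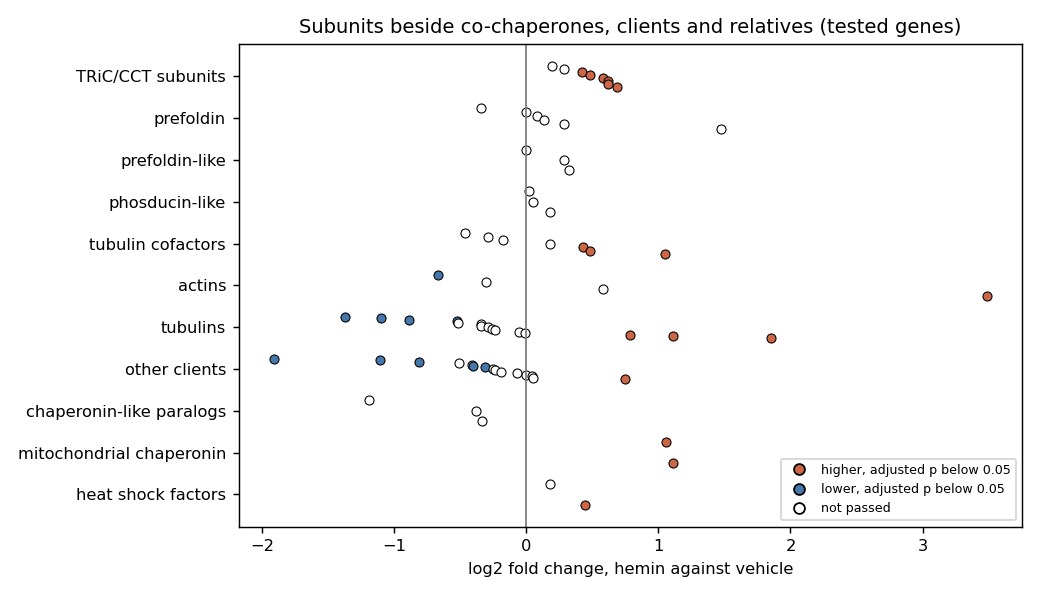
Log2 fold change, hemin against vehicle, of every tested gene in each list, with 1 point per gene, coloured where the adjusted p was below 0.05. The TRiC/CCT subunits lie together between 0.19 and 0.69, whereas tubulins run from -1.37 (Tubb3) to 1.85 (Tuba4a).

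Relatives of the subunits were measured beside them. The testis paralog Cct6b had 5 counts in all 6 libraries together and Cct8l1 7, so neither was tested. Of the chaperonin-like genes Mkks, Bbs10 and Bbs12, which help assemble a ciliary complex, 0 passed in edgeR, and Bbs12, at 2.99 ± 0.72 FPKM with vehicle and 1.26 ± 0.60 with hemin, was called lower under 5 of 15 alternatives, among them DESeq2 (adjusted p = 0.0423) and edgeR with library totals alone (0.0488). Mkks passed without hemin replicate 1 (edgeR adjusted p = 0.0249). The mitochondrial chaperonin is of a different type, made of Hspd1 (Hsp60) with its lid Hspe1 (Hsp10). Hspe1 rose 2.09-fold, from 168.0, 184.92 and 173.58 FPKM to 427.11, 352.57 and 268.45 (edgeR adjusted p = 0.00478). Hspd1 had 219.60, 227.87 and 223.27 FPKM with vehicle and 659.90, 453.64 and 273.64 with hemin, a 2.17-fold rise (edgeR adjusted p = 0.0258). Hemin replicate 3 was again the lowest hemin library for both. The Hspd1 call was lost on leaving out vehicle replicate 1, 2 or 3 (0.0735, 0.0684 and 0.0633 by edgeR's adjusted p) or hemin replicate 2 (0.0626), and in limma after quantile normalization (log2 fold change 0.73, adjusted p = 0.112). Whether the rise of the mitochondrial chaperonin differed from that of TRiC/CCT was not tested. Hsf1, the main heat shock factor, was 3.74 ± 0.84 and 4.06 ± 1.21 FPKM (edgeR adjusted p = 0.688), and Hsf2 was 1.36-fold higher at 22.4 ± 2.87 FPKM with hemin (edgeR adjusted p = 0.0295). The Hsf2 call was lost under 10 of 15 alternatives: edgeR with library totals alone (adjusted p = 0.0724), without the filter on low counts (0.0530), with the replicate block (0.0635), without 1 of the 3 vehicle libraries (0.0727, 0.0640 and 0.0823 for replicates 1, 2 and 3) and without hemin replicate 2 (0.0764) or 3 (0.0784), and limma at a pseudocount of 1 or 0.1 (0.0542 and 0.0557).

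The genes whose pattern over the 6 libraries was most like that of the subunits were ranked by Pearson's r of log2(FPKM + 1) with the mean of the 8, among 7678 genes with a mean of at least 5 FPKM. The top 5 were Spp1 (r = 0.998), Mphosph10 (0.998), Hsp90ab1 (0.997), Copa (0.996) and Tmed2 (0.996). Hsp90ab1, the constitutive cytosolic Hsp90, had 822.60, 830.11 and 908.65 FPKM with vehicle and 1563.82, 1595.84 and 1369.41 with hemin. Like the subunits, it was highest among vehicle libraries in replicate 3 and lowest among hemin libraries in replicate 3. Spp1, the secreted protein osteopontin, went from 18.8 to 78.4 FPKM in mean, and Mphosph10, a nucleolar protein of ribosome assembly, from 23.8 to 38.8. Copa and Tmed2, which serve vesicle traffic between the endoplasmic reticulum and the Golgi, went from 65.5 to 98.5 and from 112 to 132 FPKM. With 2 groups of libraries, a gene that is higher in all hemin libraries tends to have a high r with any other such gene, so the ranking is a description only.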

How the data were processed

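The titles put 3 RNA-seq libraries in the vehicle and 3 in the hemin group. Bowtie 0.12.2, RSEM and the builds mm8 and mm9 are listed in the submitters' processing notes, without role or order. Annotation release, read filters and strand are not given there. Per the file headers, the deposited tables hold expected counts (the authors' estimated reads per transcript, which can be fractions) and FPKM, scaled by the authors for length and library size. Genes missing from a table were set to 0, and tables of unannotated features were not used here.

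Transcripts were summed per gene, with 18711 of 18743 genes matched to a symbol. Counts were rounded and tested with edgeR 4.0.16 in R 4.3.3: filterByExpr, TMM, glmQLFit and glmQLFTest without covariates, two-sided, adjusted over 12779 genes. The standard error is the log2 fold change over the square root of F. DESeq2 1.42.0 and limma 3.58.1 on log2(FPKM + 1) were alternatives. On simulated data of these 12779 genes, edgeR called 53% of genes changed 2-fold and 84% of those changed 4-fold, and 8.05% of its calls were false. The false share was 16.67% of the calls of DESeq2 and 6.9% of those of limma. Far fewer genes were changed in the simulation than were called in the real fit, so these percentages do not carry over to the real calls. Named genes are the 8 members, up to 4 per list by smallest p with the largest against its direction, and the 5 nearest in pattern. The members and lists were chosen with earlier results of these data known. A planned comparison of the protein sequences was not made.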

Additional observations from a re-analysis of the deposited data

How the results depend on the processing

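The count of subunits called higher was 6 and stayed between 5 and 7 under every alternative: DESeq2 gave 7, limma after quantile normalization 5, and leaving out 1 library 5 to 7, and 0 were called lower under any. The calls of Cct2, Cct4, Cct5, Cct7 and Cct8 held under all 15 alternatives. Cct6a did not pass after quantile normalization (log2 fold change 0.20), nor in some fits without 1 library (0.35 to 0.51 over these 6 fits). Cct3 passed in DESeq2 (0.30) and in some fits without 1 library (0.23 to 0.36). Tcp1, not called, turned to -0.013 after quantile normalization. The difference in the share of Cct8, 0.03 percentage points, ranged from -0.12 to 0.23 on leaving out 1 library. Calls over all genes without 1 library ranged from 1442 to 2213 higher and 1109 to 2317 lower, the lowest being without vehicle replicate 2. With library totals alone the share of higher calls was 39.9%, against 50.8%, and the median subunit change 0.44, and after quantile normalization that median was 0.31, against 0.53. Lower calls in the partner and client lists were 17 after quantile normalization and 6 to 12 without 1 library, against 10.

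With the replicate number as a block, 6 subunits were called (median log2 fold change 0.53) and 1892 genes were higher and 1836 lower. Among named genes, the calls of Tubb4a, Stat3, Hsf2, Tbcel, Tbca and Tmed2 were lost with this block (edgeR adjusted p = 0.0913, 0.0598, 0.0635, 0.0522, 0.0531 and 0.0699), and Pfdn4 became called higher (0.0436). The call of Vhl was lost with DESeq2's size factors in edgeR (0.0539). Same-numbered libraries deviated together with r = 0.063, 0.10 and 0.157, each library best with its own number, which falls short of pairing them. It is a hint from the data and not from the design. Among uncalled co-chaperones, Uri1 turned negative with library totals alone (-0.095), limma at a pseudocount of 1 (-0.068) or 0.1 (-0.072), quantile normalization (-0.009), no filter (-0.044), the replicate block (-0.021) and in part without 1 library (-0.21 to 0.11). Pdcl did so with totals alone (-0.047), limma (-0.043 and -0.046), quantile normalization (-0.013) and in part without 1 library (-0.24 to 0.21). Pdcl3 did so with totals alone (-0.069), limma (-0.035 and -0.037), quantile normalization (-0.048), no filter (-0.021) and in part without 1 library (-0.076 to 0.087). The causes were not tested. The subunits had 1912 to 5153 counts per library. Genes with few counts, among them Cct6b and Cct8l1, were not tested.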
